A study of Mus musculus with 48 samples.

Results

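The integrated stress response was followed through 10 genes: the eIF2α kinases Eif2ak3 (PERK) and Eif2ak4 (GCN2), the transcription factors Atf4, Ddit3 (CHOP) and Atf3, the metabolic and signaling outputs Asns, Chac1, Sesn2 and Trib3, and the phosphatase subunit Ppp1r15a (GADD34). Members were taken as every probe set, a group of short oligonucleotides that reads one transcript, whose platform symbol was one of these genes. This gave 14 of the 45037 probe sets tested, or 10 of 17097 named genes. They were read on 48 arrays, which cover liver and 3 nervous tissues (midbrain, cerebellum and spinal cord) in knockout (KO) mice lacking Tia1 and in wild type (WT) mice, aged 3 or 6 months, with 3 mice in each of the 16 groups. The 12 mice per the labels were WT 1, 2 and 3 and KO 122970, 122972 and 122973, whose numbers recur at both ages and were read here as separate animals. Comparisons between the ages are thus between different mice, and age and cohort cannot be told apart. All mice had the C57Bl/6 background per the labels (C57BL6/J in the methods) and no treatment. The KO allele is a recombination at exon 4 that is present in every cell of the body and leaves a shortened Tia1 mRNA without TIA-1 protein. The deposited design calls the WT mice littermates, while the methods describe WT animals from a supplier and KO animals from homozygous matings, so that genotype and breeding origin cannot be told apart.

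In this pathway, stress sensors phosphorylate the translation factor eIF2α: PERK responds to misfolded protein in the endoplasmic reticulum, and GCN2 to uncharged tRNA when amino acids run short. General translation then slows, stalled mRNAs gather in stress granules, which TIA-1 helps to nucleate, and the Atf4 mRNA is translated preferentially. ATF4 protein switches on genes of amino acid synthesis, transport and redox balance, and GADD34 later reverses the phosphorylation. Much of the control of ATF4 and of both kinases thus lies in translation and phosphorylation, which arrays of mRNA do not read.

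As a check of the labels, the Tia1 probe set at exon 4 lay at 7.49 to 7.69 on the log2 scale in WT spinal cord at 3 months and at 5.14 to 5.52 in KO spinal cord. It was called lower in all 6 nervous tissue comparisons, with KO minus WT differences of −2.35 to −1.79. In liver, where the signal was dimmer, the difference was not called, at −0.76 at 3 months (adjusted p = 0.117) and −0.39 at 6 months (adjusted p = 0.426). Another Tia1 probe set, which lies outside that exon and so is no check of the deletion, was higher in KO liver by 1.25 at 3 months (adjusted p = 0.000153) and by 1.32 at 6 months (adjusted p = 0.000173), as it was in the 6 nervous tissue comparisons by 0.44 to 0.70. Markers of each labeled tissue were high where they belong: Pcp2 averaged 12.3 in cerebellum, Slc6a3 8.74 in midbrain, Hoxc8 8.85 in spinal cord and Alb 13.1 in liver, while the midbrain marker En1 was near background throughout (2.87 in midbrain). One array, WT 1 cerebellum at 3 months, stood somewhat apart, with a median of 4.10 where the other cerebellar arrays had 4.21 to 4.27. Because these are whole tissues, fewer cells of a type and less RNA per cell cannot be told apart.

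The response genes were measured at very different brightness. The main Atf4 probe set averaged 9.84 over all arrays, above 97.1% of probe sets, and Asns 8.45. Atf3 (3.13) and Trib3 (3.76) had means under the median of all values (4.17), as did the second Atf4 probe set and 2 of 3 for Eif2ak3, so 5 of 14 probe sets were dim. Calls below are from limma, fitted to each tissue separately, at a Benjamini-Hochberg adjusted p under 0.05 over all 45037 probe sets. Counts at an unadjusted p under 0.05 stand without the share of all probe sets at that level, which was not counted.

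**Figure D1:**
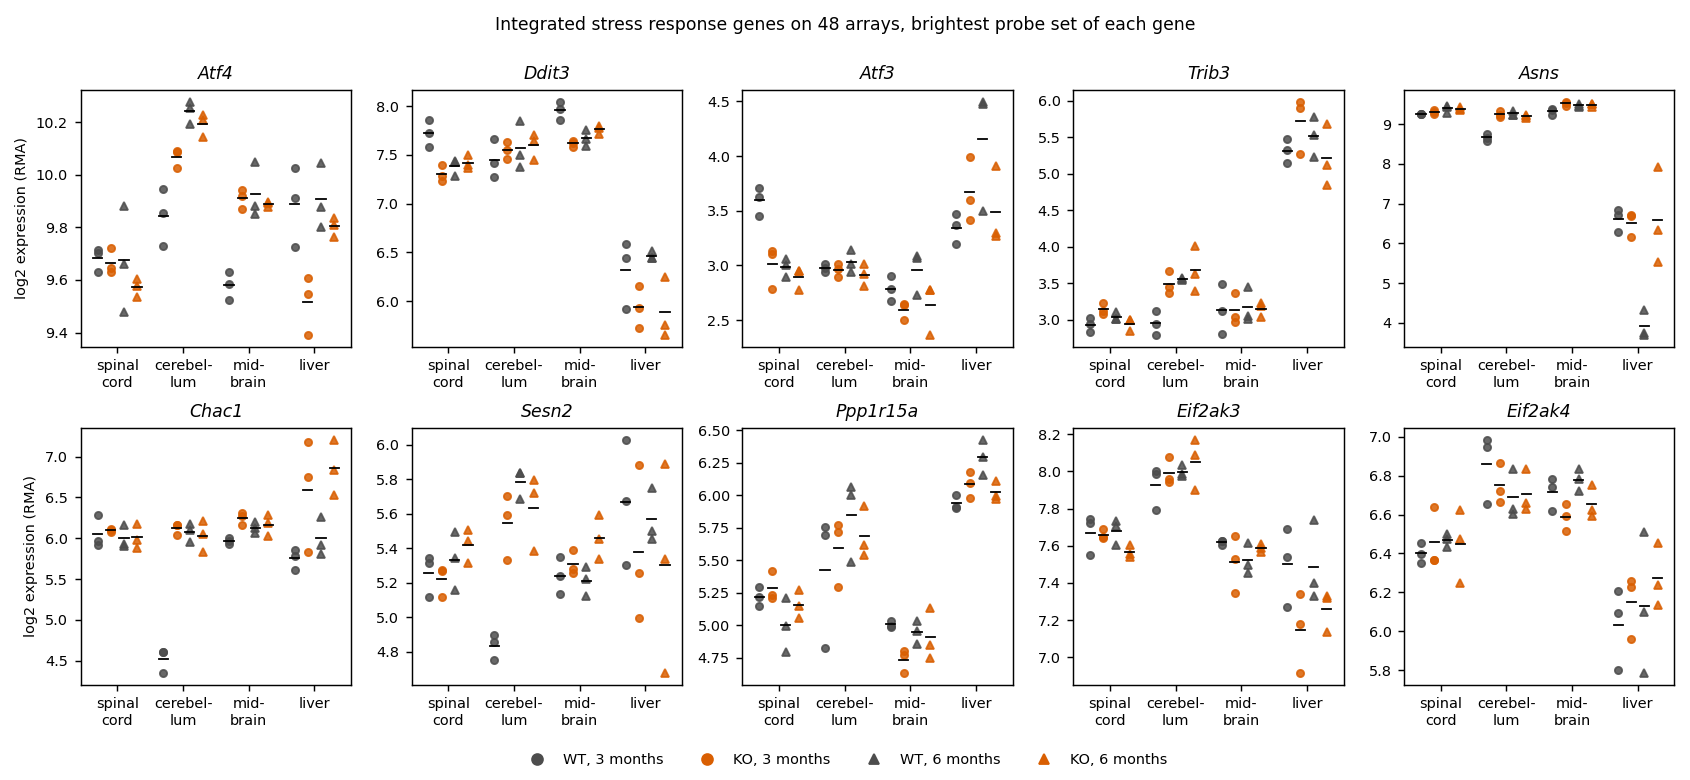
Log2 expression of the brightest probe set of each of the 10 genes on all 48 arrays, by tissue; within a tissue the groups run WT 3, KO 3, WT 6 and KO 6 months, points are mice and bars are group means. The WT cerebellum at 3 months sits low for Chac1 (4.35 to 4.61), Sesn2 and Asns, and the WT liver at 6 months sits low for Asns (3.69 to 4.32).

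Across the WT tissues, Trib3, a pseudokinase induced by ATF4 and CHOP, was highest in liver, with a mean of 5.42 ± 0.232 (SD, n = 6) against 3.25 ± 0.349 in cerebellum (adjusted p = 8.91e-12). Asns, which makes asparagine, ran the other way, with 9.40 ± 0.0996 in midbrain, 9.33 ± 0.0987 in spinal cord, 8.97 ± 0.338 in cerebellum and 5.27 ± 1.51 in liver. Midbrain and spinal cord did not differ in Asns (adjusted p = 0.206), whereas each further step down did. These Asns means pool unlike ages: WT cerebellum averaged 8.67 at 3 and 9.27 at 6 months, against 9.26 and 9.40 in WT spinal cord. WT liver averaged 6.62 at 3 and 3.91 at 6 months. Ddit3, encoding the pro-apoptotic factor CHOP, was highest in midbrain (7.81 ± 0.178) and lowest in liver (6.39 ± 0.240), with spinal cord and cerebellum not separated (7.55 and 7.51, adjusted p = 0.695). The kinase gene Eif2ak3 was highest in cerebellum (7.96 ± 0.0854), above spinal cord (7.68 ± 0.0803, adjusted p = 0.000106), while its order among spinal cord, midbrain and liver was not resolved. Its sister kinase gene Eif2ak4 was similar in cerebellum (6.78) and midbrain (6.75, adjusted p = 0.746), then lower in spinal cord (6.43) and lowest in liver (6.08).

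For the remaining genes the order was partly resolved. Ppp1r15a fell from liver (6.12 ± 0.215) to cerebellum (5.64 ± 0.450) and on to spinal cord (5.11 ± 0.183), which did not differ from midbrain (4.98, adjusted p = 0.161). Atf3, an early stress factor, was highest in liver (3.75 ± 0.578), followed by spinal cord (3.29 ± 0.349) with the ages pooled. WT spinal cord averaged 3.60 at 3 months but 2.98 at 6 months, when WT cerebellum averaged 3.03. Neighbors in the order of the main Atf4 probe set differed only between liver (9.90) and midbrain (9.75, adjusted p = 0.0412). These means pool the ages too: WT midbrain averaged 9.58 at 3 and 9.93 at 6 months, and WT liver 9.89 and 9.91. No neighbors were separated for Sesn2, which ranged from 5.23 in midbrain to 5.62 in liver. The Chac1 mean of the cerebellum (5.30 ± 0.862) averages 2 unlike groups, described below.

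Differences of this kind were common on the array. Called member probe sets numbered 8 of 14 between spinal cord and cerebellum (56.9% of all probe sets), 4 between spinal cord and midbrain (39%) and 6 between cerebellum and midbrain (52.3%). Against liver, 10 were called for spinal cord (74.7% of all), 11 for cerebellum (73.7%) and 11 for midbrain (76.1%). None of these shares of members was far above the background.

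Next, KO and WT mice were compared in each tissue at each age. The clearest difference lay in the cerebellum at 3 months, where Chac1, Sesn2 and Asns were higher in KO mice, in 4 of 14 member probe sets. In the same comparison 0.375% of all probe sets were called. Chac1 encodes an enzyme that degrades glutathione and is a sensitive ATF4 target. Its values were 4.60, 4.35 and 4.61 in the WT mice and 6.04, 6.17 and 6.16 in the KO mice. The genotypes did not overlap, and KO exceeded WT by 1.60 log2 units (SE 0.11), or 3.04-fold, with an adjusted p of 6.98e-06.

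Sesn2, a stress-induced inhibitor of the growth kinase mTORC1, has a pair of probe sets and both rose. The brighter one read 4.90, 4.85 and 4.75 in WT against 5.70, 5.60 and 5.33 in KO cerebellum, and the other 4.18, 4.45 and 4.69 against 5.15, 5.23 and 5.10. Neither overlapped between the genotypes. The differences were 0.71 (SE 0.12, adjusted p = 0.0181) and 0.72 (SE 0.12, adjusted p = 0.014). Asns was at 8.76, 8.59 and 8.66 in WT and at 9.18, 9.33 and 9.25 in KO mice, a difference of 0.58 (SE 0.08, adjusted p = 0.00465).

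Atf4 itself and Trib3 missed the threshold there. Atf4 mRNA measured 9.95, 9.73 and 9.86 in WT and 10.09, 10.09 and 10.03 in KO cerebellum (difference 0.22, adjusted p = 0.337). Trib3 measured 2.79, 3.12 and 2.94 against 3.36, 3.45 and 3.67 (0.55, adjusted p = 0.133). In both genes the KO values all lay above the WT values. Ddit3 (0.10), Atf3 (−0.02), Ppp1r15a (0.17), Eif2ak3 (0.07) and Eif2ak4 (−0.11) overlapped between the genotypes.

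At 6 months the cerebellar difference was no longer seen: 0 of 14 member probe sets were called, against 0.155% of all, and none had even an unadjusted p under 0.05. Chac1 was at 6.11, 6.18 and 5.96 in WT and at 6.21, 5.83 and 6.05 in KO mice, which overlapped. The Chac1 difference was −0.05 (95% interval −0.28 to 0.19). From 3 to 6 months the KO minus WT difference thus changed by −1.65 (95% interval −1.98 to −1.32, adjusted p = 0.000514). It was the only member probe set of 14 called for such a change in the cerebellum, where 0.0178% of all were called. For Sesn2 (−0.86 and −0.87) and Asns (−0.65) the change between the ages had adjusted p-values of 0.184, 0.169 and 0.118.

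The group that stood apart was WT at 3 months, though how many of all probe sets place it so was not counted. Its Chac1 values (4.35 to 4.61) lay below all 9 other cerebellar arrays (5.83 to 6.21), and the same held for Asns (8.59 to 8.76 against 9.17 to 9.34), for Sesn2 (4.75 to 4.90 against 5.33 to 5.84 in the brighter probe set), for Trib3 (2.79 to 3.12 against 3.36 to 4.01) and for Atf4 (9.73 to 9.95 against 10.03 to 10.28). Accordingly, WT cerebellum at 6 months lay above that at 3 months by 1.56 for Chac1, 0.95 and 0.93 for Sesn2, 0.60 for Asns and 0.40 for Atf4 (adjusted p = 1.66e-05, 0.00238, 0.00251, 0.0036 and 0.0399). Age and cohort cannot be told apart here. The Atf4 call was lost in 11 of 12 fits without 1 mouse, all but the one without WT 1 of 3 months, with an adjusted p up to 0.157, and that of Asns in 1 model of all 48 arrays (0.35). These 5 of 14 probe sets compare with 0.673% of all. In KO cerebellum 0 of 14 were called with age (0.0289% of all), with 1 at an unadjusted p under 0.05. The KO comparison at 3 months and the WT age comparison share the 3 WT arrays of 3 months, so that they are not independent of each other. Between the WT ages 5 of 5 endothelial markers summed to 414.3 to 462.9 at 3 months and 326.8 to 348.7 at 6 months on the linear scale, and 3 of 5 cerebellar markers to 14190 to 15140 and 15460 to 16040. The hepatocyte, adipocyte and spinal cord lists, all near background there, were also separated. Their part in the result was not tested.

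**Figure D2:**
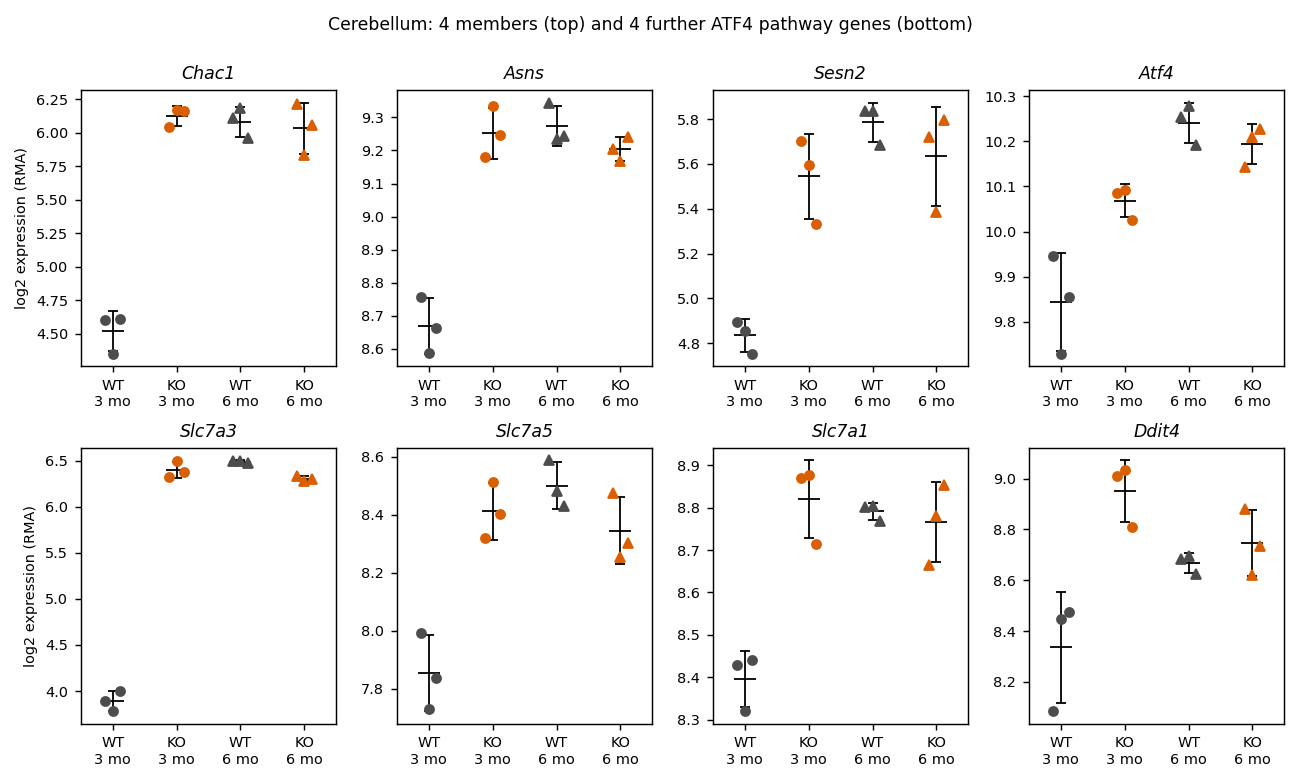
Log2 expression in the cerebellum by group for 4 members and 4 further ATF4 pathway genes; points are single mice, horizontal ticks are means and error bars SD (n = 3), and each panel has its own axis. In all 8 panels the WT mice of 3 months lie below the other 9 arrays. The 8 genes were each called in a comparison that uses these WT arrays, so this position follows in part from their choice. Ddit3, Atf3, Ppp1r15a, Eif2ak3 and Eif2ak4, which overlapped between the 3-month genotypes, are not shown.

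The cerebellar calls differed in how far they held. Chac1 passed in each of 12 fits that left out 1 mouse (log2 difference 1.52 to 1.65) and under every alternative tried. Asns passed in those 12 but not when all 48 arrays shared 1 estimate of spread (adjusted p = 0.524) or in a fit of this tissue and age alone (0.0638). It was also lost with the mouse as a replicate block (0.527) and by nested F decisions, which judge the KO comparisons together. The brighter Sesn2 probe set was lost in the same settings (0.0775 in 1 model of 48 arrays, 0.0638 alone, 0.0793 with the block, and by nested F). It was also lost without WT 2, WT 3, KO 122970 or KO 122972 of 3 months, reaching an adjusted p of 0.0997. The other was lost without WT 2, KO 122970 or KO 122972 (up to 0.0876), by nested F decisions and in the fit of this tissue and age alone (0.0937). WT 1, the array with the low median, was not required by any of these calls. Of the marker lists of cell types and tissue regions, only that of the spinal cord, near background here, was separated between the 3-month genotypes in cerebellum, with 4 of 5 markers summing to 23.03 to 23.89 in WT and 24.74 to 25.69 in KO mice. The summed linear signal of 5 of 5 neuronal markers was 14820 to 15110 in WT and 14170 to 16130 in KO mice, that of 3 of 5 cerebellar markers 14190 to 15140 and 14610 to 16770, and that of 5 of 5 choroid plexus markers 226.8 to 9082 and 281.3 to 8337.

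Whether the cerebellum differed from the other nervous tissues was tested directly, a comparison chosen after the values were seen. The KO minus WT difference of Chac1 at 3 months was larger in cerebellum than in spinal cord by 1.56 (SE 0.16, adjusted p = 1.84e-05) and than in midbrain by 1.32 (SE 0.13, adjusted p = 1.89e-05). Asns differed from spinal cord by 0.53 (adjusted p = 0.0369) but not detectably from midbrain (0.39, adjusted p = 0.159). These were 2 of 14 member probe sets against spinal cord (0.04% of all) and 1 of 14 against midbrain (0.0244% of all).

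**Figure D3:**
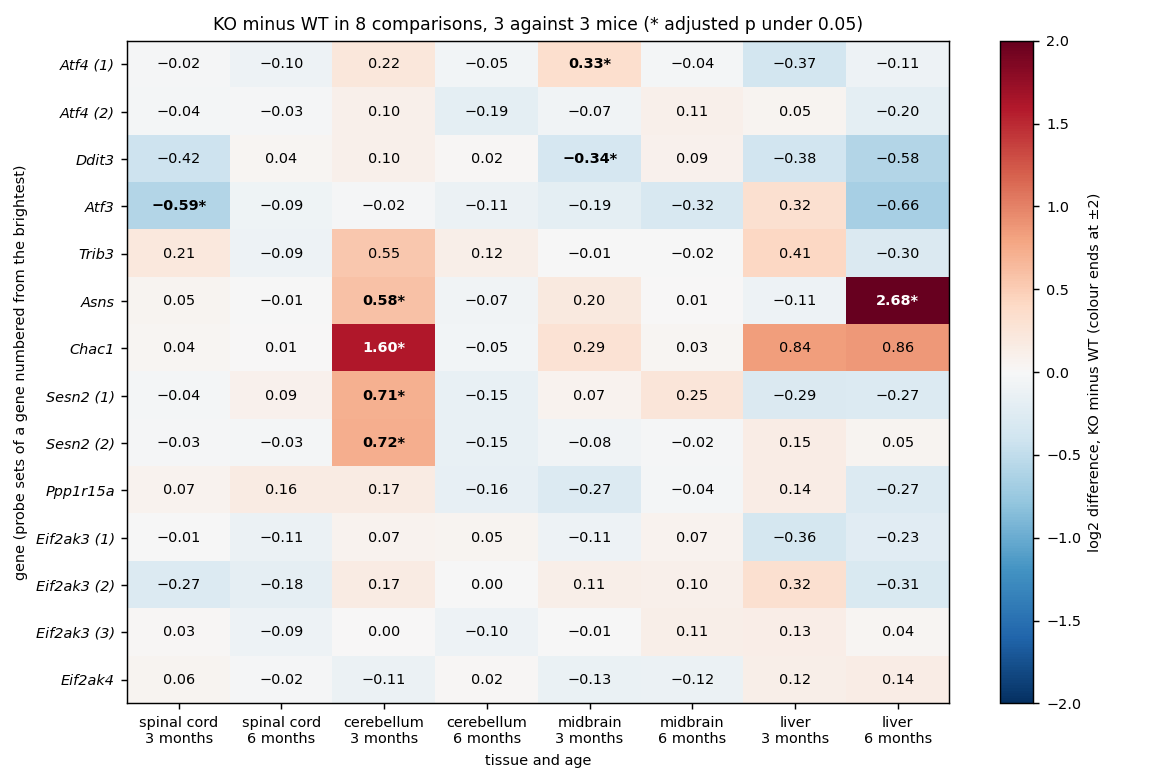
Log2 difference, KO minus WT, of the 14 member probe sets in the 8 comparisons of 3 against 3 mice; red is higher and blue lower in KO, stars mark an adjusted p under 0.05, and the color scale ends at ±2. The cerebellum at 3 months holds 4 of the 8 stars, among them Chac1 at 1.60, and the cerebellum at 6 months none.

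Many ATF4 targets carry a C/EBP-ATF response element, to which ATF4 binds as a heterodimer. Its letters TGATGNAA were searched on both strands of the 250 bases before each RefSeq start (mouse GRCm38.p6). They occurred in Chac1, Asns and Atf3 among the 10 genes, all of which had a promoter entry, and in 3.45% of 32851 promoters of the same length. The stretches below are shown because they hold these matches, in capitals, and all read in the direction of the gene.
Chac1: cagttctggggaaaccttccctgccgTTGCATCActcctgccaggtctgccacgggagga
Asns: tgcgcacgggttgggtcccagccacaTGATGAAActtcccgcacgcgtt
Atf3: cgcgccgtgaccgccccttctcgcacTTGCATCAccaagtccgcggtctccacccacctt
The Chac1 stretch is chr2:119351023-119351082 (plus strand), with the match from −193 to −186 counted from the start. The Asns stretch is chr6:7693210-7693258 (minus strand), matched from −23 to −16, and the Atf3 stretch is chr1:191183410-191183469 (minus strand), matched from −110 to −103. In Chac1 and Atf3 the element lies on the opposite strand and thus appears as its reverse complement. A match describes the letters only. Sesn2, which was also higher, has none in this window, and Atf3, which has one, was not called in cerebellum. The cAMP response element TGACGTCA, found in 1.55% of all promoters, occurred in Ppp1r15a alone among the 10.

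The wider pathway was described by lists of further genes, with the brightest probe set of each gene. In the 3-month cerebellum, 3 of 16 measured ATF4 targets of amino acid synthesis and transport were higher in KO mice, 0 lower, with a median of 0.33 against 0.02 over all probe sets. Foremost was Slc7a3, a cationic amino acid transporter, at 3.89, 3.78 and 4.0 in WT and 6.33, 6.49 and 6.37 in KO mice. This is a difference of 2.51 (SE 0.08, adjusted p = 7.42e-10), the same group again being low: the other 9 arrays spanned 6.28 to 6.50. Slc7a5, the large neutral amino acid transporter, rose by 0.56 (adjusted p = 0.0211) and Slc7a1, another cationic transporter, by 0.42 (adjusted p = 0.0445). Each of the 3 called genes of this list is a plasma membrane transporter, and no enzyme of the list was called. Asns, an enzyme of amino acid synthesis called higher in the same comparison, is counted among the members and not in this list. The calls thus do not set transport apart from synthesis.

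Other branches moved less. Of 20 measured further outputs of ATF4 and CHOP, only Ddit4, an inhibitor of mTORC1, was called higher (0.61, adjusted p = 0.0293), with a list median of 0.15. None of 14 aminoacyl tRNA synthetases passed, although 12 of 14 were positive (median 0.21, 6 of 14 at an unadjusted p under 0.05, a level whose share over all probe sets was not counted). The 14 measured eIF2 kinases, subunits, exchange factor and phosphatase genes had a median of −0.01 with 0 called. The 17 genes of the ATF6 and IRE1 branches, which read endoplasmic reticulum stress by other routes, had a median of 0.06 with 0 called, and the 13 immediate early genes a median of −0.12 with 0 called. At 6 months no gene of these lists was called in cerebellum, and the amino acid list had a median of −0.01.

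**Figure D4:**
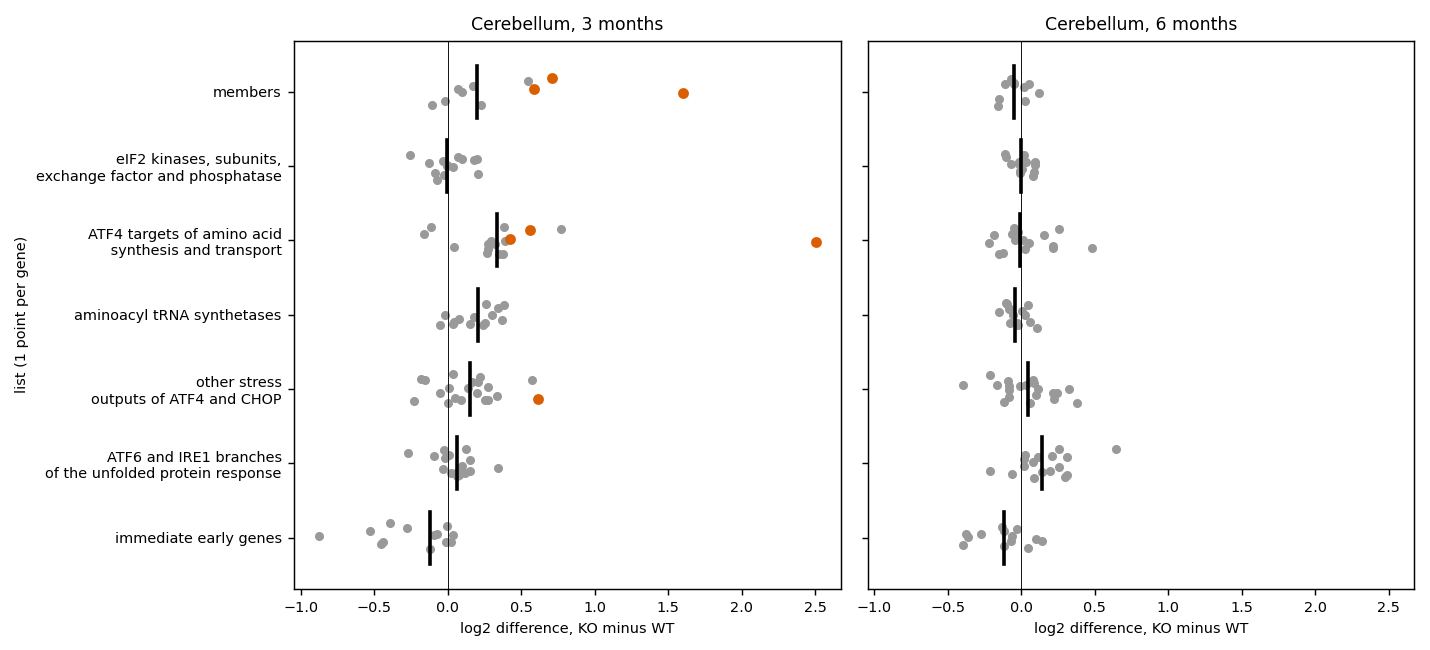
Log2 difference, KO minus WT, of every measured gene of 7 lists in cerebellum at 3 months (left) and 6 months (right), 1 point per gene at its brightest probe set, on a shared axis; orange points had an adjusted p under 0.05 and vertical bars are list medians. The amino acid targets of ATF4 center at 0.33 at 3 months and at −0.01 at 6 months.

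The WT ages in cerebellum, 6 minus 3 months, gave values of like size on the shared WT arrays. Slc7a3 was higher by 2.60, Slc7a5 by 0.65, Slc7a1 by 0.40, the seryl tRNA synthetase gene Sars by 0.47 and the translation repressor gene Eif4ebp1 by 0.78. Xbp1, the IRE1 branch factor, was lower by 0.48. For Slc7a3 the change of the KO minus WT difference from 3 to 6 months was −2.69 (adjusted p = 6.48e-08).

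In midbrain at 3 months, Atf4 was higher and Ddit3 lower in KO mice, 2 of 14 member probe sets against 0.611% of all. Atf4 read 9.63, 9.52 and 9.58 in WT and 9.94, 9.92 and 9.87 in KO mice (0.33, SE 0.07, adjusted p = 0.048). Ddit3 read 7.86, 8.04 and 7.97 against 7.64, 7.62 and 7.59 (−0.34, SE 0.07, adjusted p = 0.0499). Neither gene overlapped between the genotypes, and in both the WT mice of 3 months stood apart from all 9 other midbrain arrays (9.85 to 10.05 for Atf4, 7.59 to 7.79 for Ddit3). The share of all probe sets that place these WT mice apart was not counted. Both genes were called on these arrays, so the position follows in part from that choice. Chac1 (0.29) and Asns (0.20) were not called (adjusted p = 0.107 and 0.18).

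Both midbrain calls lay at the threshold. Of 12 fits without 1 mouse, only the one without WT 3 of 6 months kept them, and adjusted p-values reached 0.163 for Atf4 and 0.169 for Ddit3. Both were also lost in 1 model of all 48 arrays (0.0791 for Atf4 and 0.562 for Ddit3). Marker sums differed between these genotypes too, those of skeletal muscle, near background, included: 5 of 5 neuronal markers summed to 14160 to 14970 in WT and 15150 to 15550 in KO midbrain, 5 of 5 astrocyte markers to 1759 to 1893 and 1605 to 1717, and 5 of 5 microglia markers to 495.4 to 523.1 and 404.9 to 447.4. Their part in the result was not tested. At 6 months 0 of 14 were called (0.229% of all), with 2 at an unadjusted p under 0.05. In WT midbrain Atf4 was higher at 6 than at 3 months by 0.35 (adjusted p = 0.0385), 1 of 14 against 0.77% of all. That call was lost in 11 of 12 fits without 1 mouse, all but the one without KO 122970 of 6 months (adjusted p up to 0.126), and in 1 model of all 48 arrays (0.0531). Neuronal, oligodendrocyte, endothelial, erythroid, cerebellar and midbrain marker sums were separated between these WT ages as well, and their part was not tested. The 13 immediate early genes, which Atf3 resembles in its rapid induction, had a median of −0.44 at 3 months, with 7 lower at an unadjusted p under 0.05 and 0 called. For all probe sets the share at that unadjusted level was not counted. In the wider lists Ddit4 was higher at 3 months by 0.81 (adjusted p = 0.0111) and Gpt2, an alanine aminotransferase, at 6 months by 0.39 (adjusted p = 0.0376).

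In spinal cord at 3 months only Atf3 was called, 1 of 14 against 0.318% of all. Atf3 is induced in injured neurons and glia, and it read 3.63, 3.71 and 3.45 in WT and 3.13, 2.79 and 3.11 in KO mice. The genotypes did not overlap, but both are dim, and the difference was −0.59 (SE 0.10, adjusted p = 0.0345). Ddit3 was lower as well, 7.58, 7.86 and 7.72 against 7.28, 7.39 and 7.23 (−0.42), with an adjusted p of 0.0709. The WT mice of 3 months lay above all 9 other arrays of the tissue in both genes (2.77 to 3.13 for Atf3, 7.23 to 7.50 for Ddit3). How many of all probe sets place them so was not counted. Both genes are named for a difference on these same arrays, so this position follows in part from their choice. Between the WT ages, Atf3 in spinal cord was lower at 6 months by 0.61 (adjusted p = 0.0373), 1 of 14 against 0.218% of all. The age call was lost without WT 1 or WT 2 of 3 months or any one of WT 1, WT 2, WT 3 or KO 122972 of 6 months (adjusted p up to 0.144), and in 1 model of all 48 arrays (0.157). Microglia marker sums were separated between these WT ages, at 562.8 to 587.6 at 3 months and 631.9 to 681.6 at 6 months. So were the endothelial, erythroid, stellate cell, cerebellar and midbrain marker sums, and the part of all these was not tested.

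The Atf3 call between the genotypes was lost in 7 of 12 fits without 1 mouse (WT 1, WT 2 and each KO mouse of 3 months, WT 2 and WT 3 of 6 months), with an adjusted p up to 0.136. It was also lost in 1 model of all 48 arrays (0.248), with the mouse as a replicate block (0.232) and in a fit of this tissue and age alone (0.138). In these spinal cords 4 of 5 oligodendrocyte markers summed to 9584 to 10080 in WT and 10600 to 11120 in KO mice, and 5 of 5 granulocyte markers to 561.9 to 1673 and 2377 to 4094. Microglia markers (5 of 5) summed to 562.8 to 587.6 in WT and 505.2 to 553.6 in KO mice, and spinal cord Hox markers (4 of 5) to 725 to 771.5 and 859.2 to 954. Stellate cell markers summed to 918.3 to 936.2 in WT and 805.4 to 825.1 in KO mice. The part of these in the result was not tested. At 6 months 0 of 14 were called, against 0.127% of all, with 0 at an unadjusted p under 0.05. The luminal chaperone factor Sdf2l1 of the unfolded protein response list was higher then by 0.60 (adjusted p = 0.034).

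The mean of the 3 nervous tissues of each mouse, 6 KO against 6 WT mice, gave Chac1 higher by 0.32 (SE 0.05, adjusted p = 0.0029) and Atf3 lower, with a difference of −0.22 (SE 0.05, adjusted p = 0.0235). These were 2 of 14 probe sets where 2.28% of all were called. The Atf3 call was lost without WT 1, KO 122972 or KO 122973 of 3 months or WT 2, WT 3 or KO 122973 of 6 months (adjusted p up to 0.0666), and Chac1 kept its call in all 12 fits. The Chac1 mean was carried by the 3-month cerebellum: the 6 single differences were 0.04 and 0.01 in spinal cord at 3 and 6 months, 1.60 and −0.05 in cerebellum, and 0.29 and 0.03 in midbrain. Among the amino acid targets 6 of 16 were higher and 0 lower, led by Cth (0.37), a cysteine-forming enzyme, Slc7a3 (0.34), Gpt2 (0.31) and Slc7a5 (0.23). Slc7a3 differed by 2.51 in the 3-month cerebellum and by −0.22 to 0.02 in the other 5 comparisons, whereas Cth and Gpt2 were positive in all 6. Further outputs gave 3 of 20 higher, namely Ddit4 (0.51), the stress protein gene Nupr1 (0.36) and Sesn1 (0.16). The unfolded protein response list gave Sdf2l1 (0.43) and the chaperone gene Hspa5 (0.21), and the immediate early genes had Jun lower (−0.30).

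In liver at 3 months no member probe set of 14 was called where 0.375% of all were, with 3 at an unadjusted p under 0.05, while 1 model of all 48 arrays called Chac1, Atf4 and Eif2ak3. Chac1 was at 5.86, 5.79 and 5.61 in WT and at 6.75, 7.18 and 5.84 in KO mice, which overlapped (0.84, adjusted p = 0.315). Atf4 was at 9.73, 10.03 and 9.91 against 9.55, 9.61 and 9.39 (−0.37, adjusted p = 0.253), and these KO livers lay below all 9 others (9.73 to 10.05). How many of all probe sets do so was not counted. Of the further outputs, the growth arrest gene Gadd45a was lower, with a difference of −1.34 (adjusted p = 0.0251).

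At 6 months Asns was the member called in liver, 1 of 14 against 0.606% of all. Its values were 3.69, 3.73 and 4.32 in WT and 7.93, 6.33 and 5.53 in KO mice, without overlap but with a wide spread among KO mice. The difference was 2.68 (SE 0.46, adjusted p = 0.0289). The WT values lie around the median of all values (4.17), so that the size of the fold is not well measured. As in cerebellum a WT group stood apart, here at 6 months: all 9 other livers, WT mice of 3 months included, had Asns at 5.53 to 7.93. How many of all probe sets place this group apart was not counted, and Asns was called on these same arrays. Between the WT ages, liver Asns was lower at 6 months by 2.70 (adjusted p = 0.0333), 1 of 14 against 0.42% of all, again on shared WT arrays. This age call was lost in 9 of 12 fits without 1 mouse (adjusted p up to 0.132) and held only without KO 122972 of 3 months, KO 122970 of 6 months or KO 122973 of 6 months. Kupffer cell (5 of 5) marker sums were also separated between the WT ages, at 2624 to 3103 and 1968 to 2390. So were those of granulocytes (123.1 to 144.5 and 57.22 to 81.29) and microglia (306.9 to 359.8 and 257.3 to 289.4). The oligodendrocyte and midbrain lists were separated too, and the part of all these was not tested.

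**Figure D5:**
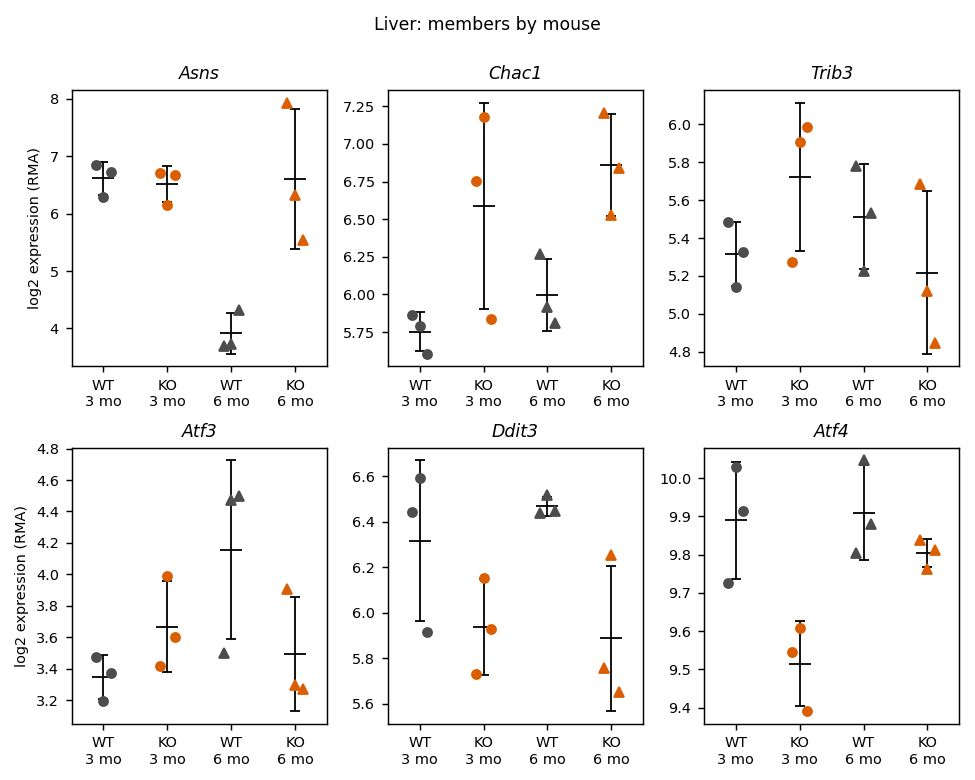
Log2 expression of 6 members in liver by group; points are single mice, horizontal ticks are means and error bars SD (n = 3), and each panel has its own axis. Asns in WT mice at 6 months (3.69 to 4.32) lies below every other liver, while the other genes show overlapping or uncalled differences.

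No other member was called in the 6-month liver, where 5 of 14 probe sets, Asns included, had an unadjusted p under 0.05. Chac1 was at 6.27, 5.92 and 5.81 in WT and 7.20, 6.53 and 6.84 in KO mice (0.86, adjusted p = 0.254), without overlap, Trib3 differed by −0.30, and Ddit3 (−0.58) and Atf3 (−0.66) had adjusted p-values of 0.263 and 0.355. In 1 model of all 48 arrays Chac1 was called higher (adjusted p = 0.00113) and Ddit3 (0.00355) and Atf3 (0.00858) lower. None of 16 amino acid targets was called (median −0.06). The 13 immediate early genes had a median of −0.68, 9 of them lower at an unadjusted p under 0.05, and 0 were called. The share of all probe sets at that unadjusted level was not counted.

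The liver Asns call was lost without any one of the WT mice of 6 months or KO 122972 of that age, with an adjusted p up to 0.12, and in a fit of this tissue and age alone (0.14). Within this comparison 5 of 5 Kupffer cell markers summed to 1968 to 2390 in WT and 2594 to 3608 in KO mice and 5 of 5 endothelial markers to 712.8 to 798.2 and 620.8 to 674.6, whereas 5 of 5 hepatocyte markers overlapped (30170 to 31460 and 30680 to 32990). The spinal cord list, near background, was separated as well. So were granulocyte (57.22 to 81.29 and 82.42 to 216.2) and microglia (257.3 to 289.4 and 303.1 to 375.1) marker sums. The part of these cells in the result was not tested.

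In KO mice the response genes did not change detectably between the ages. Besides the cerebellum, 0 of 14 were called in spinal cord (0.0311% of all), midbrain (0.00444%) and liver (0.0466%), with 1, 0 and 2 at an unadjusted p under 0.05. The model of all 48 arrays called 3 in KO liver, namely Atf4 and 2 dim probe sets of Eif2ak3. A change of the KO minus WT difference between the ages was called for 0 of 14 in spinal cord (0.0133% of all), midbrain (0.0222%) and liver (0.0333%), with 3 at an unadjusted p under 0.05 in each.

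Among the brightest probe sets, those of the kinase genes and of the feedback gene had the narrowest ranges of KO minus WT differences. Eif2ak4 differed between KO and WT by −0.13 to 0.14 over the 8 comparisons and was never called. The main Eif2ak3 probe set differed by −0.36 to 0.07, and Ppp1r15a by −0.27 to 0.17, with no call. Asns and Eif2ak3 lie on chromosome 6 with Tia1, with 450 and 115 array genes between them and it in RefSeq order, among 945 array genes of that chromosome.

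Which genes tracked each member beyond the group means was read from residuals over the 48 arrays, as a description. The candidates were 16263 named probe sets whose mean lay above the median probe set. Residuals of all tissues were pooled without scaling, so the liver arrays, whose spread was the widest (median SD 0.218), can weigh most in the correlations. Nearest to Chac1 were Tspan3 (r = 0.81), Kndc1 (0.75) and Wdr53 (0.75), and nearest to Atf4 were Odf3b (0.67), Kcnc1 (0.67) and Nob1 (0.66). Asns was followed most closely by Cpne8 (0.89), Btg3 (0.89) and Fmn2 (0.88). Asns spread widely among the KO livers of 6 months, and the part of those arrays in its correlations was not tested. For Sesn2 the nearest was Dab2ip (0.76), for Ddit3 Unc50 (0.72), for Atf3 Spock2 (0.76), for Trib3 Pitpnc1 (0.69), for Ppp1r15a Txnrd3 (0.78), for Eif2ak3 Exoc4 (0.75) and for Eif2ak4 Pde4b (0.71). No member of the 10 was among the 3 nearest of another, but Atf3 and Trib3 were too dim to be candidates. Between members r ran from −0.48 (Atf3 and Eif2ak3) to 0.61 (Asns and Sesn2, 0.27 by ranks).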

How the data were processed

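Labeled cRNA from each tissue was hybridized to Affymetrix mouse genome arrays. The deposited values are log2 expression from Robust Multichip Average, run by the authors (R 2.14.0), which corrects background, equalizes the arrays by quantiles and combines the oligonucleotides of a probe set. Such values compress large changes and make levels of different probe sets not comparable. No scanner intensities were analysed here. Of 45141 probe sets, 104 controls were left out, and the platform annotation gave 28898 of the rest 1 symbol, 551 several and 15588 none. Members and lists were chosen with earlier results of these data known. Listed genes without a symbol in the annotation were not analysed here.

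Group means were fitted in R 4.3.3 with limma 3.58.1 (statmod 1.5.0 for the block), each tissue alone (12 arrays) because its spread differed (median SD within groups 0.115 to 0.133 in the nervous tissues and 0.218 in liver). Tissue pairs used the WT arrays of both ages in a fit of both tissues. A call is a 2-sided moderated test with Benjamini-Hochberg adjusted p under 0.05. With 3 against 3 mice an exact permutation test cannot fall below 0.1, so none was used. Precision is limited by the number of arrays. The named genes are all members, the called genes of each list (up to 4 per direction) and the nearest genes by residual correlation. The steps were tested on simulated data. Arrays with the same number, genotype and age were taken as 1 mouse that gave all 4 tissues, which defines a replicate block across tissues. Residuals of the same mouse correlated by a median of 0.0511 (72 pairs) against −0.0219 for other mice (144 pairs). Residuals cancel out within a group, so these medians are linked and do not test that reading of the labels. Alternatives were 1 model of 48 arrays, nested F decisions, each tissue and age alone, requantiled values, a filter on dim probe sets, a trended prior, the block, a threshold of 0.01, the brightest probe sets alone, and leaving out each mouse. Motifs were searched in RefSeq promoters (GRCm38.p6), which were used for sequence only.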

Additional observations from a re-analysis of the deposited data

Results flagged for a closer look

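Chac1 in the cerebellum drew attention because its KO minus WT difference changed between the ages, by −1.65 on the log2 scale in the test of that change. The 3-month value rests on the WT mice of that age, which lay below all 9 other cerebellar arrays. The change between the ages kept its call in each of the 12 fits without 1 mouse (−1.74 to −1.55).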

How the results depend on the processing

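Of 5628 recomputed member values, none that was called in the main or the alternative fit changed sign. The same held for 540 tissue pair values, of which 16 crossed the threshold. Sign changes of uncalled differences were not counted. Some settings, such as the threshold of 0.01, leave the difference itself unchanged and so could not reverse it. Called member probe sets in the 6 nervous tissue comparisons numbered 7, against 2 in 1 model of all 48 arrays, 4 by nested F decisions, 1 with each tissue and age alone and 2 at a threshold of 0.01. In liver the count was 1, against 7 in 1 model, 7 by nested F decisions, 0 with tissue and age alone, 2 with a trended prior and 0 at 0.01: the single model lends liver the smaller spread of the nervous tissues. For the nervous tissue mean (2) the threshold of 0.01 left 1. Age in WT gave 8, and 4 at 0.01, age in KO 0 and 3 in 1 model, and the change between the ages 1, with 3 in 1 model and 4 with a trended prior. With the mouse as a replicate block these counts were 2 in nervous tissue, 7 in liver, 4 for the nervous tissue mean, 7 for age in WT, 3 for age in KO, 3 for the change between the ages and 51 for tissue pairs (50 without). Leaving out 1 mouse gave 2 to 6 in nervous tissue, 0 to 1 in liver, 1 to 2 for the nervous tissue mean, 4 to 8 for age in WT, 0 for age in KO and 1 for the change between the ages. The cause of these shifts was otherwise not tested. Signals near background (Atf3, Trib3, Eif2ak3 in part) limit what can be read from those genes.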
